A study of Homo sapiens with 8 samples.

Results

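The annexins are a family of proteins that bind membranes carrying negatively charged phospholipids when calcium rises. Expression of 10 annexin genes (ANXA1 to ANXA8, ANXA10 and ANXA11) was examined in RNA-seq libraries of A549 cells, a line from a human lung adenocarcinoma. The genes were matched by their names in the annotation and are 10 of the 58302 genes of the count table. They were chosen with earlier results of these data known. Other annexin loci, among them ANXA9 and ANXA13, are outside this set and are described at the end. The study asked which RNAs change when APE1, the DNA repair endonuclease encoded by APEX1, is silenced. The cells had been transfected with an siRNA against APE1 (4 libraries labelled siAPEX1) or with a scramble siRNA (4 libraries labelled siCTRL), without any other genetic change named in the labels. The libraries were made from total RNA with a small RNA kit that had been modified to also capture primary miRNA transcripts. Genes of nuclear-encoded proteins other than APEX1 held 15.0% to 15.7% of the counts under the label siCTRL and 12.2% to 12.9% under the label siAPEX1.

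Each annexin consists of a conserved core, which carries the calcium-binding sites and attaches to the membrane, and an amino-terminal tail that differs between members and binds partners such as S100 proteins. Annexins are known for organizing membrane domains, sealing wounds of the plasma membrane and taking part in vesicle traffic. In epithelial cells ANXA1 is known as a glucocorticoid-regulated protein with anti-inflammatory action, and ANXA2, together with S100A10, as a surface platform for plasminogen.

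The gene that the siRNA targets went against the labels. APEX1 (ENSG00000100823) had 51, 61, 64 and 47 counts in the libraries labelled siCTRL and 21150, 19470, 27916 and 20767 counts in those labelled siAPEX1. The study showed the silencing at the level of the protein. Whether the transfected siRNA, which matches this gene, gave some of these reads was not tested, and each direction below is that of the libraries as labelled. Total counts lay between 1639796 and 1949886 in the libraries labelled siCTRL and between 1348386 and 1619500 in those labelled siAPEX1. All 10 epithelial and A549 marker genes examined were detected, with a summed level (in CPM, a counts-per-million value scaled with TMM factors) of 972 to 1149 CPM under the label siCTRL and 673 to 763 CPM under the label siAPEX1. Of 9 that could be tested, 6 were lower, KRT19 (log2 fold change −2.31), KRT18 (−1.36), KRT7 (−1.21) and KRT8 (−1.01) the most, and 2 were higher (CDH1 and AKR1B10, named after their values were seen). Of all genes tested, 15.8% were lower and 15.9% higher. Of 9 markers of blood, endothelial and stromal cells (a list also shortened after values were seen) 3 were at 0 in every library (CD3E, PECAM1 and CDH5), no count was above 11, and the summed level was 5.53 to 12.2 CPM and 6.59 to 11.4 CPM. Of these, COL1A1 had 7, 3, 6 and 11 counts under the label siCTRL and 3, 4, 2 and 1 under the label siAPEX1. ACTA2 had 1, 6, 4 and 7 against 3, 8, 7 and 9. The epithelial marker EPCAM, too weakly counted to be tested, had similarly few, 9, 8, 8 and 9 against 1, 0, 4 and 5. COL1A1, ACTA2 and EPCAM were named after their values were seen. The part of the epithelial markers' difference in the annexin values was not tested. In bulk RNA, fewer cells of a kind and less RNA per cell cannot be told apart.

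The start regions of the 5 annexin genes whose libraries separated the labels are shown first, and were picked by that outcome. Each sequence runs from 250 bases before to 50 bases after the RefSeq start site (GRCh38.p14), 5′ to 3′ on the strand of the gene. Capitals mark matches to TATAAA, to TGANTCA and to GGGCGG, sought on both strands (CCGCCC is GGGCGG on the opposite strand, and TGANTCA reads as itself). ANXA1 lies at chr9:73151615-73151914 (plus strand), ANXA2 at chr15:60397937-60398236 (minus), ANXA5 at chr4:121696931-121697230 (minus), ANXA3 at chr4:78551520-78551819 (plus) and ANXA6, at the first of its start sites, at chr5:151157730-151158029 (minus).
ANXA1: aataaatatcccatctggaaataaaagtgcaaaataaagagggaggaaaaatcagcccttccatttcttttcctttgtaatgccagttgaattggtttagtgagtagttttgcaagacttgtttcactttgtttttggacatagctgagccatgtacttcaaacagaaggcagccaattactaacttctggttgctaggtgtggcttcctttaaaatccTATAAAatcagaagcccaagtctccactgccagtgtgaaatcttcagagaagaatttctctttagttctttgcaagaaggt
ANXA2: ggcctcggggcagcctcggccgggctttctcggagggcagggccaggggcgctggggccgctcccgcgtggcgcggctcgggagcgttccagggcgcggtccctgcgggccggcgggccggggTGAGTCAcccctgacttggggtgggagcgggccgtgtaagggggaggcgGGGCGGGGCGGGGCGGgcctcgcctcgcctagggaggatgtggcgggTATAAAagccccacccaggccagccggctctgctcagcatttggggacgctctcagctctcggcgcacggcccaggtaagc
ANXA5: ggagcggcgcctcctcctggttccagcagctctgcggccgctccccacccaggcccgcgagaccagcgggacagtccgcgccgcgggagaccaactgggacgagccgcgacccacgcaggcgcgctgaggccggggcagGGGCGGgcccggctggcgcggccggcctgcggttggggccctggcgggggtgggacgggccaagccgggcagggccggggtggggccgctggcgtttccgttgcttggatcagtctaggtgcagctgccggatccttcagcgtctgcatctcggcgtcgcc
ANXA3: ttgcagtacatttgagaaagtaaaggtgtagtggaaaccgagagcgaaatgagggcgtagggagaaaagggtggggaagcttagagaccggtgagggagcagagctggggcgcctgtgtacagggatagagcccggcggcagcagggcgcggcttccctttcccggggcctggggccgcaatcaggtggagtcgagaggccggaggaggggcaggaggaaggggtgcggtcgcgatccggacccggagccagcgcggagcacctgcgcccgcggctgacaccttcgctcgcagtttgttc
ANXA6: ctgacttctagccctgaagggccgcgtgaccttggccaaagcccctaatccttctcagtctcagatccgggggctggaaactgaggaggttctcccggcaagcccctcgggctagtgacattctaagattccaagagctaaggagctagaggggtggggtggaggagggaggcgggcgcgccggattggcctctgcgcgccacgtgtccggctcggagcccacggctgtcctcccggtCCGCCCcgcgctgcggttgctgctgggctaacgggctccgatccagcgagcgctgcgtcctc
The ANXA1 region had a GC content of 37.7% and no CG dinucleotide, against medians of 58.7% and 14 over 35116 RefSeq promoters of the same length. It held TATAAA, 31 bases before the start. The ANXA2 region held TATAAA at the same distance of 31 bases, TGAGTCA 127 bases before the start and 3 overlapping copies of GGGCGG beginning 78, 73 and 68 bases before it, within a GC content of 76.0%. One GGGCGG stood in the ANXA5 region, 111 bases before the start, and 1 in that of ANXA6, on the opposite strand 12 bases before the start. None of the 3 motifs was found in this window of ANXA3. Among all promoters of this length, TATAAA occurred in 11.5%, TGANTCA in 7.71% and GGGCGG in 45.0%. These matches describe letters in a window and do not show binding of a factor. Annexins that were not called carry the same motifs, GGGCGG in ANXA4, ANXA7 and ANXA11 and TATAAA 61 bases before a start site of ANXA11. The other start site of ANXA6 had none of the 3. A relation of these motifs to the differences was not tested. ANXA10, another gene with TATAAA near its start (29 bases before it) and without a CG dinucleotide, was barely counted in these cells.

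Of the 10 annexins, 3 were higher in the libraries labelled siAPEX1 (ANXA1, ANXA5 and ANXA2), 2 were lower (ANXA3 and ANXA6), 3 did not pass the test (ANXA4, ANXA7 and ANXA11) and 2 were too weakly counted to be tested (ANXA8 and ANXA10). The test was edgeR's quasi-likelihood test with TMM factors, which scale each library by the bulk of its genes, and a gene was called at a Benjamini-Hochberg adjusted p of at most 0.05 over all 5368 genes tested. In the same test 15.9% of all genes were higher and 15.8% lower. A change of at least 1 on the log2 scale, in addition to the call, was reached by 1 annexin upward (ANXA1), beside 3.60% of all genes, and by 2 downward (ANXA3 and ANXA6), beside 5.68%. Levels of the libraries did not overlap between the labels for the 3 annexins that were higher, as for 14.0% of all genes, nor for the 2 that were lower, as for 14.9%. One of the 8 tested annexins, ANXA6, reached the count needed for testing only in the libraries labelled siCTRL, and a member that passes in that way had to differ. ANXA3 reached it in 4 libraries labelled siCTRL and in 2 labelled siAPEX1. The study calls the libraries biological replicates, while the labels do not say whether they came from separate cultures, and p-values measure the spread between these libraries only.

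**Figure D1:**
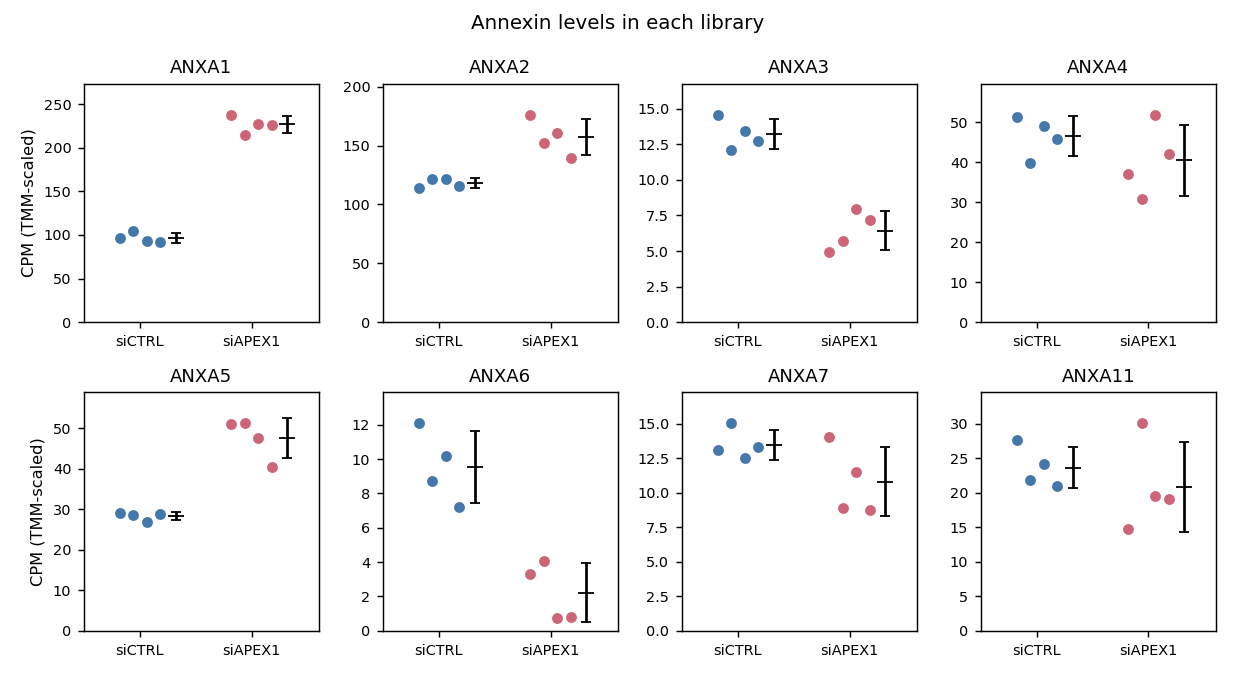
Level of the 8 tested annexins in each library, in CPM scaled with TMM factors (vertical axes start at 0 and differ between panels), with the mean ± SD of 4 libraries per label as black bars. The points of ANXA1, ANXA2 and ANXA5 labelled siAPEX1 lie above all those labelled siCTRL, those of ANXA3 and ANXA6 lie below, and those of ANXA4, ANXA7 and ANXA11 overlap.

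ANXA1 (ENSG00000135046, chr9:73151865-73170393, plus strand, 13 exons) encodes annexin A1, which is known to restrain phospholipase A2 and to act on formyl peptide receptors. It had 192, 215, 201 and 167 counts in the libraries labelled siCTRL and 289, 265, 316 and 285 in those labelled siAPEX1. Although the latter libraries were all smaller, each held more ANXA1 counts than any library labelled siCTRL. The level was 96.6 ± 5.35 CPM (SD, n = 4) under the label siCTRL and 227 ± 9.37 CPM (SD, n = 4) under the label siAPEX1, a 2.35-fold difference. The log2 fold change was 1.23 (SE 0.0949, edgeR adjusted p = 9.83e-14), the largest rise in the family.

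ANXA5 (ENSG00000164111, chr4:121667946-121696995, minus strand, 13 exons) encodes annexin A5, the phosphatidylserine-binding protein that is used to stain apoptotic cells. Its counts were 58, 59, 58 and 52 under the label siCTRL and 62, 63, 66 and 51 under the label siAPEX1. The raw counts of the groups overlapped, whereas the levels relative to the library did not, at 26.9 to 29.2 CPM against 40.5 to 51.1 CPM. Means were 28.3 ± 1.01 CPM (SD, n = 4) and 47.6 ± 4.99 CPM (SD, n = 4), with a log2 fold change of 0.75 (SE 0.135, edgeR adjusted p = 2.65e-05), that is, 1.68-fold. The SD under the label siCTRL was 3.56% of the mean, below the 13.3% that counting error alone gives, and so understates the uncertainty.

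ANXA2 (ENSG00000182718, chr15:60347134-60402883, minus strand, 13 exons) encodes annexin A2, which forms a complex with S100A10 beneath and on the plasma membrane. Its counts were 227, 251, 263 and 209 under the label siCTRL and 214, 188, 223 and 176 under the label siAPEX1. Levels were 118 ± 3.99 CPM (SD, n = 4) and 157 ± 15.3 CPM (SD, n = 4). The rise of 0.41 on the log2 scale (SE 0.0974, edgeR adjusted p = 0.00100), or 1.33-fold, was the smallest of those called. Of all 50-base stretches of its transcript, 38.2% also occur in transcripts of other genes, most often the pseudogene ANXA2P2, and the counting leaves out reads that map to several places, so the ANXA2 values are uncertain to that extent.

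ANXA3 (ENSG00000138772, chr4:78551747-78610451, plus strand, 13 exons) encodes annexin A3, a member best known from neutrophils. It had 29, 25, 29 and 23 counts under the label siCTRL and 6, 7, 11 and 9 under the label siAPEX1, and the groups did not overlap. Levels were 13.2 ± 1.06 CPM (SD, n = 4) and 6.43 ± 1.36 CPM (SD, n = 4). The log2 fold change was −1.02 (SE 0.259, edgeR adjusted p = 0.00198), a level 2.03-fold lower.

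ANXA6 (ENSG00000197043, chr5:151100706-151157815, minus strand, 26 exons) encodes annexin A6, the member with a duplicated core, which is known to influence cholesterol distribution and endocytosis. Its counts were 24, 18, 22 and 13 under the label siCTRL and 4, 5, 1 and 1 under the label siAPEX1. All libraries labelled siAPEX1 were below all libraries labelled siCTRL, at 2.22 ± 1.71 CPM (SD, n = 4) against 9.54 ± 2.08 CPM (SD, n = 4). The log2 fold change of −2.11 (SE 0.398, edgeR adjusted p = 4.65e-05), a level 4.33-fold lower, rests on 11 counts in all under the label siAPEX1 and has the largest error of the family.

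The other three tested annexins had overlapping libraries. ANXA4 (ENSG00000196975, chr2:69644425-69827112, plus strand), a member of secretory epithelia, had 102, 82, 106 and 83 counts under the label siCTRL and 45, 38, 72 and 53 under the label siAPEX1, or 46.5 ± 5.04 and 40.5 ± 8.90 CPM (SD, n = 4 each), with a log2 fold change of −0.19 (SE 0.140, edgeR adjusted p = 0.323). ANXA7 (ENSG00000138279, chr10:73375101-73414076, minus strand) encodes annexin A7, also called synexin, which promotes fusion of secretory granules. Its counts were 26, 31, 27 and 24 against 17, 11, 16 and 11, its levels 13.5 ± 1.08 and 10.8 ± 2.49 CPM (SD, n = 4 each) and its log2 fold change −0.32 (SE 0.230, edgeR adjusted p = 0.317). An exon of ANXA7 is overlapped by a lncRNA gene on the opposite strand (ENSG00000233144), and the strand setting of the counting is not given in the sources used here. ANXA11 (ENSG00000122359, chr10:80150889-80205572, minus strand) encodes annexin A11, which links RNA granules to lysosomes. Its counts were 55, 45, 52 and 38 against 18, 37, 27 and 24, with 23.6 ± 2.98 and 20.9 ± 6.47 CPM (SD, n = 4 each) and a log2 fold change of −0.19 (SE 0.186, edgeR adjusted p = 0.488). Replicate 2 of the libraries labelled siAPEX1 had the highest ANXA11 level of all 8 libraries, 30.0 CPM, and replicate 1 of the same label the lowest, 14.8 CPM.

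ANXA8 (ENSG00000265190, chromosome 10) had 2, 0, 0 and 0 counts under the label siCTRL and ANXA10 (ENSG00000109511, chromosome 4) had 1, 0, 2 and 0, and neither had a count under the label siAPEX1. A count of 0 allows up to 3 counts, or 1.36 to 1.62 CPM in the libraries labelled siCTRL and 2.12 to 2.42 CPM in those labelled siAPEX1, and covers counting error only. A difference in these genes was therefore not detectable at this depth. Of the 50-base stretches of the ANXA8 transcript, 83.2% also occur in transcripts of other genes, most often its near copy ANXA8L1, so its reads are largely among those left out of the counting.

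Measured per kilobase of transcript, the family had a steep order of levels. Under the label siCTRL, ANXA2 (76.1 CPM per kb, range 73.5 to 78.4) and ANXA1 (68.9, range 66.0 to 74.3) led and overlapped each other. ANXA4 (17.5, range 15.0 to 19.3) and ANXA5 (17.3, range 16.4 to 17.8) followed and also overlapped. ANXA3 (9.23) and ANXA7 (5.51) each stood clear of their neighbours, while ANXA11 (3.51) and ANXA6 (3.30) overlapped at the lower end. Under this label the spread of each tested annexin but ANXA4 (10.8% against 10.4%) was below counting error. For ANXA3 it was 8.04% against 19.4%, and for ANXA7 8.01% against 19.2%. Gaps between such ranges therefore overstate how clearly the genes differ. Under the label siAPEX1 the level of ANXA1 was 162 CPM per kb (range 154 to 170) and that of ANXA2 101 (range 90.0 to 113), without overlap. ANXA5 (29.0, range 24.7 to 31.2) stood clear above ANXA4 (15.3, range 11.6 to 19.6). ANXA3 (4.49), ANXA7 (4.42) and ANXA11 (3.10) overlapped one another, and ANXA6 (0.77, range 0.25 to 1.40) was below every other tested annexin. Lengths are those of the GENCODE canonical transcripts and not of the transcripts in these cells.

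The scaling of the libraries bears on each of these differences, since TMM factors were 1.10 to 1.14 under the label siCTRL and 0.873 to 0.919 under the label siAPEX1. With library size only, the median over all genes shifted from −0.00 to −0.34 on the log2 scale, and 6.33% of all genes were called higher and 36.2% lower. Of the annexins, ANXA1 (0.89) and ANXA5 (0.40, edgeR adjusted p = 0.0166) were then still called higher, ANXA2 was not called (0.07, edgeR adjusted p = 0.609), and 5 were called lower. ANXA4 (−0.53, edgeR adjusted p = 0.00176), ANXA7 (−0.66, edgeR adjusted p = 0.0186) and ANXA11 (−0.53, edgeR adjusted p = 0.0180) were called lower under this scaling in addition to ANXA3 (−1.36) and ANXA6 (−2.45). No tested annexin changed sign.

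**Figure D2:**
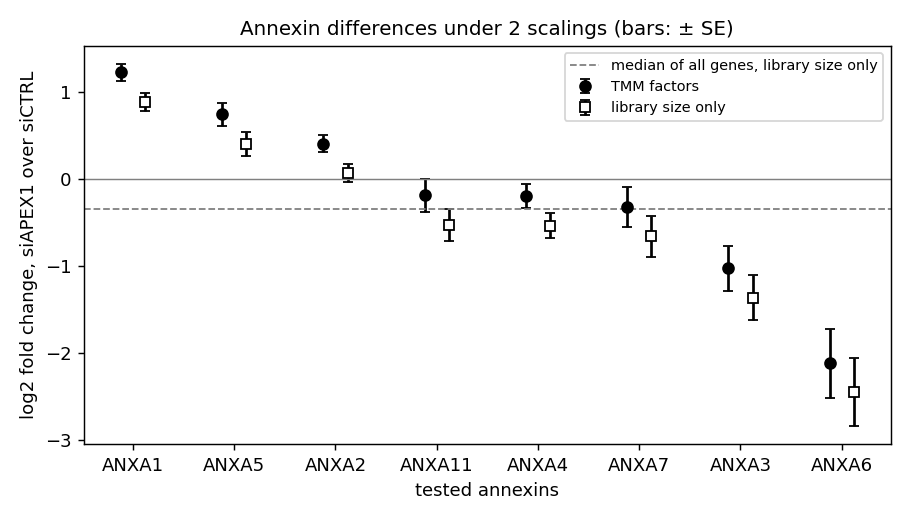
Log2 fold change ± SE (vertical axis, libraries labelled siAPEX1 over siCTRL) of the 8 tested annexins, with TMM factors (filled circles) and with library size only (open squares); the dashed line is the median of all genes under the latter scaling, −0.34. The open squares of ANXA1, ANXA5 and ANXA2 lie above that line, and those of ANXA3 and ANXA6 lie farthest below it. The line is no reference for the filled circles, for which the median of all genes was −0.00.

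Shares within the family do not depend on the scaling of a library. The 10 genes together had 609 to 760 counts per library under the label siCTRL and 610 to 732 under the label siAPEX1. ANXA1 held 27.6% ± 1.42 of these counts (SD, n = 4) under the label siCTRL and 44.3% ± 1.68 (SD, n = 4) under the label siAPEX1, without overlap. The share of ANXA2 was 33.8% ± 1.40 and 30.7% ± 1.57 (SD, n = 4 each) and that of ANXA5 8.10% ± 0.37 and 9.28% ± 0.80 (SD, n = 4 each), and for both the libraries overlapped. ANXA4 went from 13.3% to 7.90%, ANXA11 from 6.74% to 4.10%, ANXA7 from 3.85% to 2.09%, ANXA3 from 3.77% to 1.26% and ANXA6 from 2.72% to 0.43%, each without overlap of the libraries. A gain in the share of 1 gene lowers the shares of the others. No background over all genes was computed for separation on this measure, and the CPM levels of ANXA4, ANXA7 and ANXA11 overlapped. The ratio of ANXA1 to ANXA2 counts was 0.764 to 0.857 in the libraries labelled siCTRL, where ANXA2 was the more counted gene in each, and 1.35 to 1.62 in those labelled siAPEX1, where ANXA1 was.

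**Figure D3:**
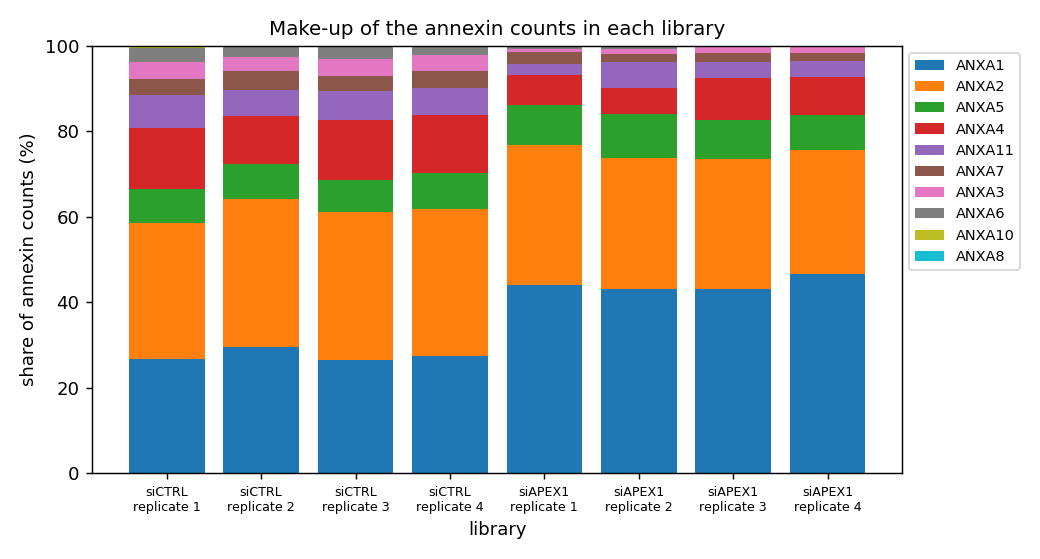
Share of each annexin (vertical axis, % of the counts of the 10 annexin genes) in each of the 8 libraries. The ANXA1 segment fills 26.4% to 29.6% of the bars labelled siCTRL and 43.2% to 46.7% of those labelled siAPEX1, and the segments of ANXA3, ANXA4, ANXA6, ANXA7 and ANXA11 are smaller in every bar labelled siAPEX1.

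Measured against the whole library, the 10 annexins together took 371 to 399 CPM under the label siCTRL and 419 to 486 CPM under the label siAPEX1, here without TMM factors. Among the counts of nuclear-encoded protein-coding genes, without APEX1, they took 0.240% to 0.254% and 0.349% to 0.382%. ANXA1 alone went from 0.0689% ± 0.00406 to 0.162% ± 0.00640 (SD, n = 4 each) of the protein-coding counts, and ANXA2 from 0.0844% ± 0.00339 to 0.112% ± 0.0102 (SD, n = 4 each). On this denominator the libraries of both genes did not overlap between the labels, but how many of all genes separate on it was not computed. The denominator itself was 15.0% to 15.7% of the counts without APEX1 under the label siCTRL and 12.2% to 12.9% under the label siAPEX1. With library size only, ANXA2 was not called (log2 fold change 0.07, edgeR adjusted p = 0.609).

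Across 4856 protein-coding genes, the log2 fold change fell with the GC content of the transcript (Spearman's rho −0.23, a description across genes, which are not replicates and share the libraries). The median was 0.05 in the fifth of genes that holds ANXA1, ANXA3, ANXA4, ANXA5 and ANXA7, −0.00 in that of ANXA2, and −0.11 in that of ANXA6 and ANXA11. Among the called annexins, the GC content of the transcript was 40.8% for ANXA1, 41.3% for ANXA3, 43.3% for ANXA5, 47.4% for ANXA2 and 53.8% for ANXA6. The part of base composition in the annexin values was not tested.

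Genes whose products work with annexins were taken as 6 lists, with 62 genes of which 39 could be tested, 5 of them higher and 13 lower in the libraries labelled siAPEX1. The list for plasminogen activation was shortened after values were seen, so this total describes the genes that were kept and is not set against the shares of all genes. The number that were higher was 2 without replicate 2 or without replicate 3 of the libraries labelled siCTRL, because NR3C1, ENO1 and VPS4B were then not called. Among 12 binding partners, 10 were tested, 4 were lower and 0 higher, beside 15.8% lower and 15.9% higher of all genes tested. The median difference of these partners was −0.04 on the log2 scale beside −0.00 for all genes tested. S100A10, the partner of ANXA2, had 202, 139, 161 and 133 counts under the label siCTRL and 105, 141, 120 and 127 under the label siAPEX1, with overlapping levels of 79.3 ± 15.2 and 97.1 ± 13.4 CPM (SD, n = 4 each). Its log2 fold change was 0.29 (SE 0.120, edgeR adjusted p = 0.0607) with TMM factors and −0.053 with library size only. It was called higher when replicate 1 labelled siCTRL (0.43, edgeR adjusted p = 0.00432), replicate 1 labelled siAPEX1 (0.37, edgeR adjusted p = 0.0292) or replicate 3 labelled siAPEX1 (0.37, edgeR adjusted p = 0.0262) was left out. With all libraries, it was also called higher with TMM factors from nuclear protein-coding genes (0.33, edgeR adjusted p = 0.0310).

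S100A11, the partner of ANXA1, was lower, with 167, 144, 175 and 130 counts against 71, 78, 78 and 67 and a log2 fold change of −0.41 (SE 0.115, edgeR adjusted p = 0.00504). Thus ANXA1 and its S100 partner differed in opposite directions between the labels. AHNAK, a very large scaffold protein that binds the complex of ANXA2 and S100A10, had 79, 95, 126 and 86 counts against 58, 44, 34 and 22. Its log2 fold change was −0.63 (SE 0.172, edgeR adjusted p = 0.00415), with overlapping levels, and −0.41 (edgeR adjusted p = 0.0726) without replicate 4 labelled siAPEX1. S100A4, a calcium-binding protein linked to cell motility, had 218, 247, 238 and 207 counts against 52, 43, 56 and 66, without overlap, and a log2 fold change of −1.41 (SE 0.119, edgeR adjusted p = 1.07e-12). S100A6, the most counted partner, had a log2 fold change of −0.36 (SE 0.0909, edgeR adjusted p = 0.00194).

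The list around annexin A1 held its formyl peptide receptors, enzymes of eicosanoid synthesis and genes of the glucocorticoid response. FPR1, FPR2 and FPR3 had no counts in any library. Of 9 genes 5 were tested, with 2 lower, 1 higher and a median of −0.21. Of all genes tested, 15.8% were lower and 15.9% higher. PTGES, the inducible prostaglandin E synthase, had a log2 fold change of −1.33 (SE 0.204, edgeR adjusted p = 1.48e-06) and PTGS2, the inducible cyclooxygenase, one of −0.80 (SE 0.110, edgeR adjusted p = 1.63e-07). NR3C1, the glucocorticoid receptor, had one of 0.34 (SE 0.120, edgeR adjusted p = 0.0245). Its call was also lost without replicate 1 labelled siAPEX1 (edgeR adjusted p = 0.0566), with DESeq2 (adjusted p = 0.0956) and with 10 counts required in every library (edgeR adjusted p = 0.0888). The same held with all genes of at least 1 count (edgeR adjusted p = 0.260) and with library size only (log2 fold change −7.77e-05).

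In the list for membrane repair, 12 of 15 genes were tested, 4 were lower, 2 higher, and the median was −0.26. Of all genes tested, 15.8% were lower and 15.9% higher. CAPNS1, the shared small subunit of the calpain proteases that process annexins at wounds, had 124, 138, 136 and 112 counts under the label siCTRL and 11, 20, 11 and 20 under the label siAPEX1, a log2 fold change of −2.38 (SE 0.169, edgeR adjusted p = 9.51e-15). The catalytic subunit CAPN1 had one of −1.24 (SE 0.276, edgeR adjusted p = 4.63e-04), and CAPN2 and MYOF, named after their values were seen, were also lower. MYOF had a log2 fold change of −0.59 (SE 0.149, edgeR adjusted p = 0.00176). That of CAPN2 was −0.38 (SE 0.137, edgeR adjusted p = 0.0297), with overlapping levels and no call with DESeq2 (adjusted p = 0.130). CAPN1 reached the count needed for testing in 4 libraries labelled siCTRL and in 2 labelled siAPEX1. CAV1, the main protein of caveolae, was higher (log2 fold change 0.73, SE 0.125, edgeR adjusted p = 1.06e-05). VPS4B, an ATPase of the ESCRT machinery, had a log2 fold change of 0.70 (SE 0.268, edgeR adjusted p = 0.0408), which was past the threshold in 1 of the 8 fits that left out a library, the one without replicate 2 labelled siAPEX1. Its call was also lost with the replicate block (edgeR adjusted p = 0.0572), with DESeq2 (adjusted p = 0.147), with all genes of at least 1 count (edgeR adjusted p = 0.223) and with library size only (edgeR adjusted p = 0.288).

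Plasminogen activation is the process for which ANXA2 and S100A10 form a surface platform. Of the 8 genes kept in this list 4 were tested, with 2 lower and 1 higher, and no median is given because the list was shortened after values were seen. PLAU, the urokinase, had 56, 61, 69 and 62 counts under the label siCTRL and 7, 4, 11 and 6 under the label siAPEX1, with a log2 fold change of −2.48 (SE 0.230, edgeR adjusted p = 1.42e-11). Its receptor PLAUR was also lower, with 32, 47, 39 and 37 counts against 6, 11, 16 and 3 (log2 fold change −1.44, SE 0.265, edgeR adjusted p = 3.26e-05). PLAU reached the count needed for testing in 4 libraries labelled siCTRL and in 1 labelled siAPEX1, PLAUR in 4 and 2. ENO1, a glycolytic enzyme that also binds plasminogen, was higher by 0.32 on the log2 scale (SE 0.106, edgeR adjusted p = 0.0182), with overlapping levels. The ENO1 call was lost with DESeq2 (adjusted p = 0.0640) and with 10 counts required in every library (edgeR adjusted p = 0.0846). It was also lost with all genes of at least 1 count (edgeR adjusted p = 0.231) and with library size only (edgeR adjusted p = 0.881). Plasminogen itself (PLG) had no counts.

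Of 11 genes of phosphatidylserine exposure, which makes the lipid that ANXA5 binds accessible, 5 were tested and 1 was called. This was TMEM30A, the shared subunit of the flippases that return the lipid to the inner leaflet, with a log2 fold change of −1.59 (SE 0.189, edgeR adjusted p = 7.40e-09), beside a median of 0.04. Among 11 other proteins that bind membranes in a calcium-dependent way, 6 were tested, 1 was higher and the median was 0.02. For both lists the shares of all genes tested were 15.8% lower and 15.9% higher. The called gene was ESYT2, an extended synaptotagmin (0.77, SE 0.201, edgeR adjusted p = 0.00254), which was not called with library size only (0.43, edgeR adjusted p = 0.0799). CPNE3, the most counted copine, had a log2 fold change of 0.10 (SE 0.180, edgeR adjusted p = 0.714).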

How the data were processed

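RNA-seq of A549 cells gave 4 libraries labelled siAPEX1 and 4 labelled siCTRL. Groups and replicates follow the labels. One column carried a sample number that differed from its title and was assigned by cell line, condition and replicate. The authors trimmed the reads, aligned them to GRCh38 with STAR 2.5.3a and counted them per Ensembl gene with its GeneCounts function, which leaves out reads that map to several places. The deposited values are raw counts, whole numbers without normalization. The annotation release and the strand setting are not given in the sources used here. Symbols, positions and canonical transcripts came from GENCODE 44 (57532 of 58302 genes matched), and start regions from RefSeq, which had an entry for each annexin except ANXA8.

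The filterByExpr function (minimum count 10, minimum total 15) kept 5368 genes. These were tested on the whole table with edgeR 4.0.16 in R 4.3.3 (TMM factors, quasi-likelihood test, Benjamini-Hochberg adjustment). The program was tested on simulated counts. The common biological coefficient of variation was 0.0832. The standard error is the log2 fold change divided by the square root of F. Alternatives were other scalings, DESeq2 1.42.0, other filters, a fold threshold of 0.75, a block for the replicate number and leaving out each library. The annexins and the lists were chosen with earlier results of these data known. All 10 annexins are named, S100A10, S100A11 and AHNAK always, and from each list at most 4 called genes with the largest change and, with fewer than 2 called, the most counted one. Items left out of the lists for plasminogen activation and for markers of other cell types after values were seen are not reported here. Intervals of 0 counts use a floor of 3 counts.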

Additional observations from a re-analysis of the deposited data

How the results depend on the processing

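ANXA1, ANXA3, ANXA5 and ANXA6 kept direction and call in every alternative that tested them, and ANXA2 in all but library size only (0.07). ANXA6 reached the count needed for testing only under the label siCTRL, so its kept call lends no support wherever that filter was used. ANXA3 reached that count in 4 libraries labelled siCTRL and in 2 labelled siAPEX1. Over the alternatives the log2 fold change of ANXA1 lay between 0.89 and 1.28, of ANXA5 between 0.40 and 0.84, of ANXA3 between −1.36 and −0.89 and of ANXA6 between −2.55 and −1.78. With library size only, 5 annexins were lower, and 1 partner gene was higher and 20 lower, against 5 and 13. S100A10 (−0.053), ENO1 (−0.024), NR3C1 (−7.77e-05) and CPNE3 (−0.24) then changed sign, beside a median of all genes of −0.34. With a filter of 10 counts in every library, ANXA3 and ANXA6 were not tested, so that 0 annexins were lower and 1 reached a log2 fold change of 1. The number was 2 with library size only, where ANXA1 fell short (0.89). ANXA3 (−1.02) stood near the threshold. It fell short with TMM factors from nuclear protein-coding genes (−0.98), and without replicate 1 labelled siCTRL (−0.97), replicate 1 labelled siAPEX1 (−0.89) or replicate 2 labelled siAPEX1 (−0.94). In each of these the number was 2. Partner genes that were higher numbered 2 with DESeq2, 2 with all genes of at least 1 count, 2 with the stricter filter and 2 to 5 with a library left out. With TMM factors from nuclear protein-coding genes they numbered 6. DESeq2 called 582 genes higher and 541 lower, edgeR 856 and 847. With library size only these were 340 and 1945. Libraries with the same replicate number did not deviate together (correlations −0.0373 to −0.00348, none highest with its own number). With the replicate block, ANXA1 had 1.23, each annexin kept its call, VPS4B lost it (adjusted p = 0.0572), and 806 genes were higher and 789 lower. Of 505 gene values under alternatives, 464 kept direction and call, 30 lost the call, 7 gained it and 4 changed sign. The depth limits ANXA6, ANXA8 and ANXA10.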

Other observations

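Outside the 10 genes, ANXA13, the annexin of intestinal and kidney epithelium, had 15, 8, 16 and 17 counts in the libraries labelled siCTRL and 15, 8, 14 and 26 in those labelled siAPEX1, with overlapping levels. Its log2 fold change was 0.82 (SE 0.295, edgeR adjusted p = 0.0297). The call was lost without replicate 2 labelled siCTRL (edgeR adjusted p = 0.114), without replicate 4 labelled siAPEX1 (0.49, edgeR adjusted p = 0.282), with DESeq2 (adjusted p = 0.0936), with library size only (0.48, edgeR adjusted p = 0.184) and with all genes of at least 1 count (edgeR adjusted p = 0.0819). Over its alternatives the adjusted p lay between 0.00532 and 0.282.

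The remaining annexin loci stood at or under 3 counts in every library, so that no fold change is given. ANXA9 had 1, 1, 1 and 0 counts under the label siCTRL and none under the label siAPEX1. ANXA8L1 had 1, 1, 2 and 1 against 2, 3, 1 and 2, and the pseudogene ANXA2P2 had 0, 0, 1 and 0 against 1, 2, 1 and 3. ANXA2R, named as a receptor for annexin A2, had no counts under the label siCTRL and 1, 1, 2 and 3 under the label siAPEX1. ANXA2P1 and ANXA2P3 had no counts.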
